A study of Mus musculus with 20 samples.

Results

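Acute phase genes were followed in mouse liver. The 10 genes were the serum amyloid A genes Saa1, Saa2, Saa3 and Saa4, the orosomucoid genes Orm1 and Orm2, haptoglobin (Hp), hemopexin (Hpx), lipocalin 2 (Lcn2) and the fibrinogen beta chain (Fgb). They were found through the gene names of the array's probes, which gave 12 probes out of 41174, for 10 of the 27573 gene names on the array. Hpx carried its older name Hpxn there and was matched through its RefSeq accession. The RNA came from the livers of 20 male mice on a mixed Sv129/C57Bl6J background, 28 weeks old, with 1 single-colour Agilent array for each mouse. The mice were wild-type or carried a knockout of both LXR alpha (Nr1h3) and LXR beta (Nr1h2). Within each genotype, 5 mice ate a normal chow (normal diet) and 5 a Western Diet for 7 weeks, which gave 4 groups of 5. The design asks how loss of LXR, the diet and their combination change hepatic gene expression.

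Acute phase proteins are secreted mainly by hepatocytes. During infection or injury, interleukin 6 and interleukin 1 reach the liver and act through STAT3, C/EBP and NF-kB factors to raise transcription of these genes, while other plasma proteins such as transthyretin fall. The serum amyloid A proteins travel on high density lipoprotein, the orosomucoids bind lipophilic molecules, haptoglobin captures free haemoglobin, hemopexin captures haem, lipocalin 2 binds bacterial siderophores and fibrinogen forms clots. LXR alpha and LXR beta are oxysterol receptors that induce genes of sterol efflux and lipogenesis and are also known to repress inflammatory genes.

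Promoter sequences from RefSeq (GRCm38.p6) were matched for 8 of the 10 genes. The 250 bases upstream of the start are shown for Saa1, Saa2, Saa3 and Lcn2, whose levels moved together from mouse to mouse. They are also shown for Saa4, whose probe with the higher mean followed those genes less closely over the mice it measured. Capitals mark each match to TTNNGNAA, a C/EBP-type pattern that reads as TTNCNNAA on the other strand, with both strands searched. The windows are chr7:46742981-46743230 on the minus strand for Saa1, chr7:46751583-46751832 on the plus strand for Saa2, chr7:46715677-46715926 on the minus strand for Saa3, chr7:46732604-46732853 on the minus strand for Saa4 and chr2:32387740-32387989 on the minus strand for Lcn2.
Saa1: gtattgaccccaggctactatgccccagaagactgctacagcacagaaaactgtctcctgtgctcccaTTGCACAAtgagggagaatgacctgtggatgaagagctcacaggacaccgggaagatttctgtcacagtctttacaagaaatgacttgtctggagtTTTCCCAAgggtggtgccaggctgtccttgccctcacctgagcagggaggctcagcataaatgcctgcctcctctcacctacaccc
Saa2: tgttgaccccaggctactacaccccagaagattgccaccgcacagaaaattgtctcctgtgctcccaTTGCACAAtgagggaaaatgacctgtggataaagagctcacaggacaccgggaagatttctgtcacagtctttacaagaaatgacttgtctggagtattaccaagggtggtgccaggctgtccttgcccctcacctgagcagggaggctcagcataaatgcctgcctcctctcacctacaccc
Saa3: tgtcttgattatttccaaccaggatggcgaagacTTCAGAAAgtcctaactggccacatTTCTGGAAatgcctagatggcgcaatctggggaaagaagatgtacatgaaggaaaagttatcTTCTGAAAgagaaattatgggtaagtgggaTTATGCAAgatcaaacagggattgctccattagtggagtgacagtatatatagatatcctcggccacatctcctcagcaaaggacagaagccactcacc
Saa4: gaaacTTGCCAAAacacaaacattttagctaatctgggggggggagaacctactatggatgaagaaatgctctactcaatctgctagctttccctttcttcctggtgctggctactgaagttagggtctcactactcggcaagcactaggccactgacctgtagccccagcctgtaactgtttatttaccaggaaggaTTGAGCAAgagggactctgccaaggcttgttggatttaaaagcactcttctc
Lcn2: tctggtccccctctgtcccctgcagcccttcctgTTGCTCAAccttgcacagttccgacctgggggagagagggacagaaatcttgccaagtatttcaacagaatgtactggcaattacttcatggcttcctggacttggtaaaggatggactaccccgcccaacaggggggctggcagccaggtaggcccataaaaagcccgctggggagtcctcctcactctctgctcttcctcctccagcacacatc

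The windows of Saa1 and Saa2 had the same base at 238 of 251 aligned columns (94.8%), and both held TTGCACAA, from base -182 to -175 before the start in Saa1 and from -183 to -176 in Saa2. Identity with the Saa1 window was 50.2% for Saa3 and 46% for Saa4. The C/EBP-type pattern was present in the windows of all 8 members, against 36.8% of the 32851 windows of all genes. The NF-kB consensus was in none of the 8 and in 3.9% of all windows. The STAT pattern TTCNNNGAA and the interleukin 6 response element CTGGGAA were found only in Fgb among the 8 (7.02% and 9.1% of all windows), and TATAAA only in Orm2 (12.4%). RefSeq places Saa3, Saa4, Saa1 and Saa2 in this order on chromosome 7, and Orm1, Orm3 and Orm2 in this order on chromosome 4. Because Saa1 and Saa2 are near-identical copies, and each symbol is listed as an older name of the other, their probes may share signal and their values are reported as uncertain between them.

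The targeted genes were low in both knockout groups. Nr1h3 had a mean log2 value of 4.60 ± 0.14 (SD, n = 5) in chow-fed wild-type mice and of -4.44 ± 0.54 (SD, n = 5) in chow-fed knockout mice, where a log2 value is the log2 signal of a probe minus the 75th percentile of its array. The same values for Nr1h2 were 0.92 ± 0.15 and -4.46 ± 0.72. On each array 53.6% to 67.1% of probes were well above background, and all 9 measured hepatocyte markers were well above background on all 20 arrays. The 20 arrays limit the precision of every value below. The p-values of the comparisons weigh a difference of means against the spread between these separate mice. That spread was estimated jointly over the 4 groups, so each p-value also depends on mice outside its comparison.

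Hp, Hpx and Fgb were too bright to compare. Hp and Fgb were saturated on 20 of 20 arrays and Hpx on 18, with intensities of 59700 to 64000 for Hp, 55900 to 71400 for Fgb and 59600 to 76900 for Hpx. The 75th percentile of the arrays rose over the same samples, from a median of 236 intensity units in wild-type mice on normal diet to 337 in knockout mice on Western diet, so a constant, saturated signal falls on the relative scale. No difference is therefore given for these 3 genes. The remaining 7 members are the subject of the comparisons. Among them Saa2 was saturated on 4 arrays, the Saa1 probe with the higher mean on 2 and Saa3 on 1, and Lcn2, Orm1, Orm2 and Saa4 on none. All 12 probes were well above background on all 20 arrays.

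**Figure D1:**
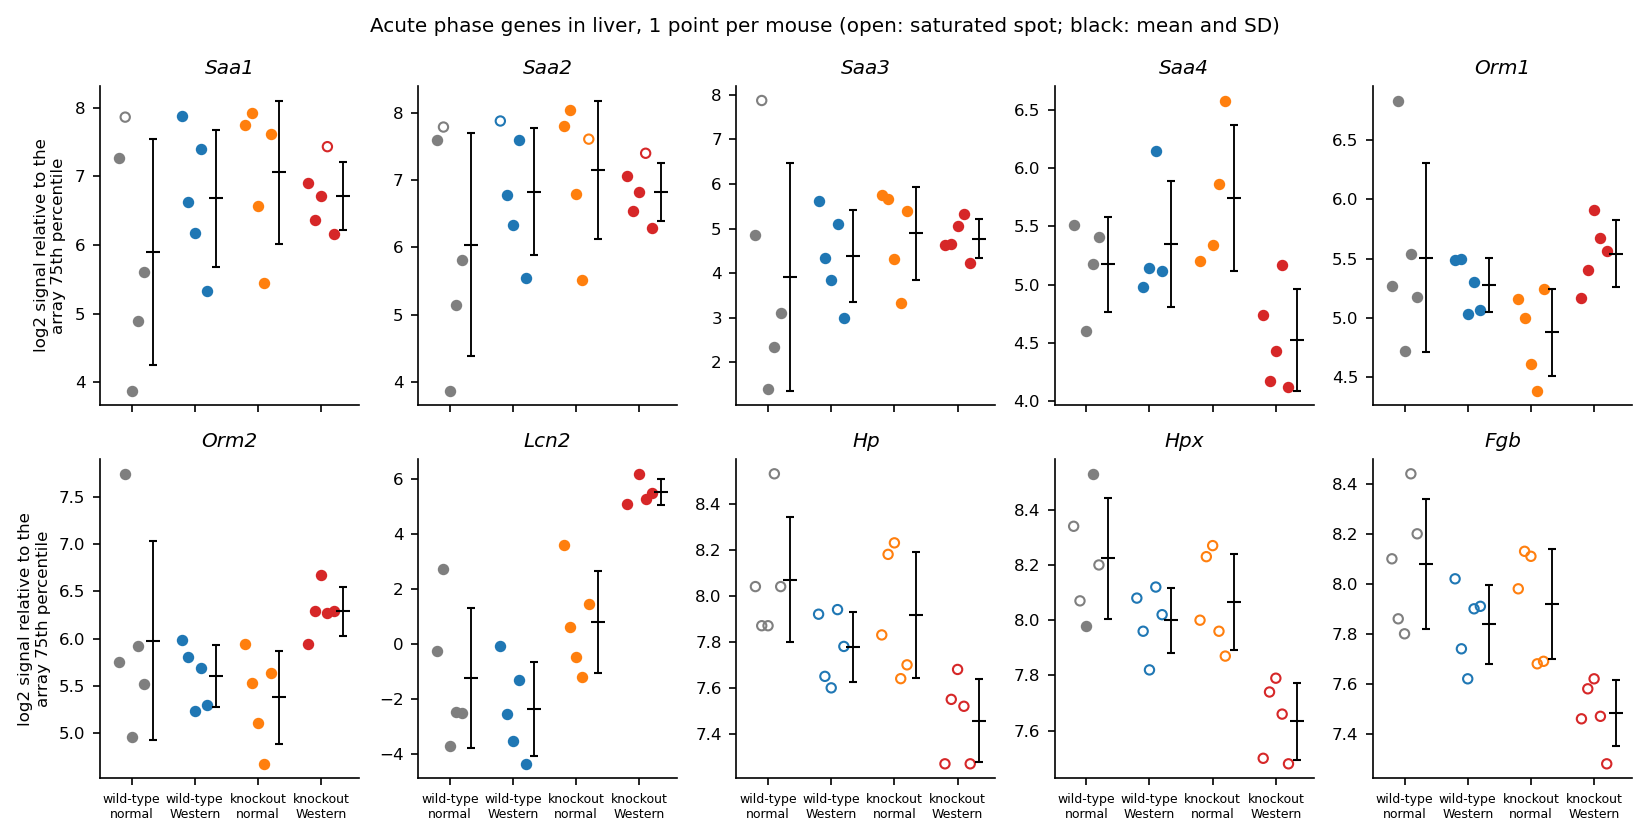
Log2 signal relative to the array's 75th percentile (vertical axis) of the 10 acute phase genes in the 4 groups (horizontal axis), with 1 point per mouse, open points for saturated spots, and the mean and SD in black. Lcn2 in knockout mice on Western diet lay between 5.10 and 6.20, above all other mice, while nearly every point of Hp, Hpx and Fgb was saturated.

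Wild-type mouse 2 on normal diet stood apart from its group. It had the highest value of the 5 mice in its group for 6 of the 9 members measured in it, whereas it was the highest for 17.5% of the 17269 genes measured in all 5. The others of the 9 were Hp, Hpx and Fgb, which were saturated in this mouse, so no order is read from them. At the second Saa4 probe this mouse was also the highest of its group (5.66). Against the median of the other 4 mice it was higher by 5.20 for Lcn2, 5.14 for Saa3, 2.61 for Saa1, 2.32 for Saa2, 2.11 for Orm2 and 1.61 for Orm1, in log2. The Saa1, Saa2 and Saa3 spots of this mouse were saturated, so these are lower bounds. Only 3 of 10 neutrophil markers (S100a9, Mpo and Csf3r) were well above background on at least 4 of the 5 arrays of its group, and it was the highest for all 3, by 2.37, 1.01 and 0.92 over the median of the other 4. The others were at or near background on most of these arrays, and no order is read from them. It was the highest for 9 of the 11 macrophage markers measured in the same way, and for 1 of 9 hepatocyte markers. Cfd, the adipocyte gene for adipsin, had a log2 value of 0.06 in this mouse and of at most -4.78 in the other 4, none of which was well above background. Several differences on normal diet are given with and without this mouse, where it moved them. The mouse was singled out by its high values of these same genes. Leaving it out raises their knockout minus wild-type differences on normal diet and narrows the shared spread. Values without it are therefore a description, and no call is read from them.

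**Figure D2:**
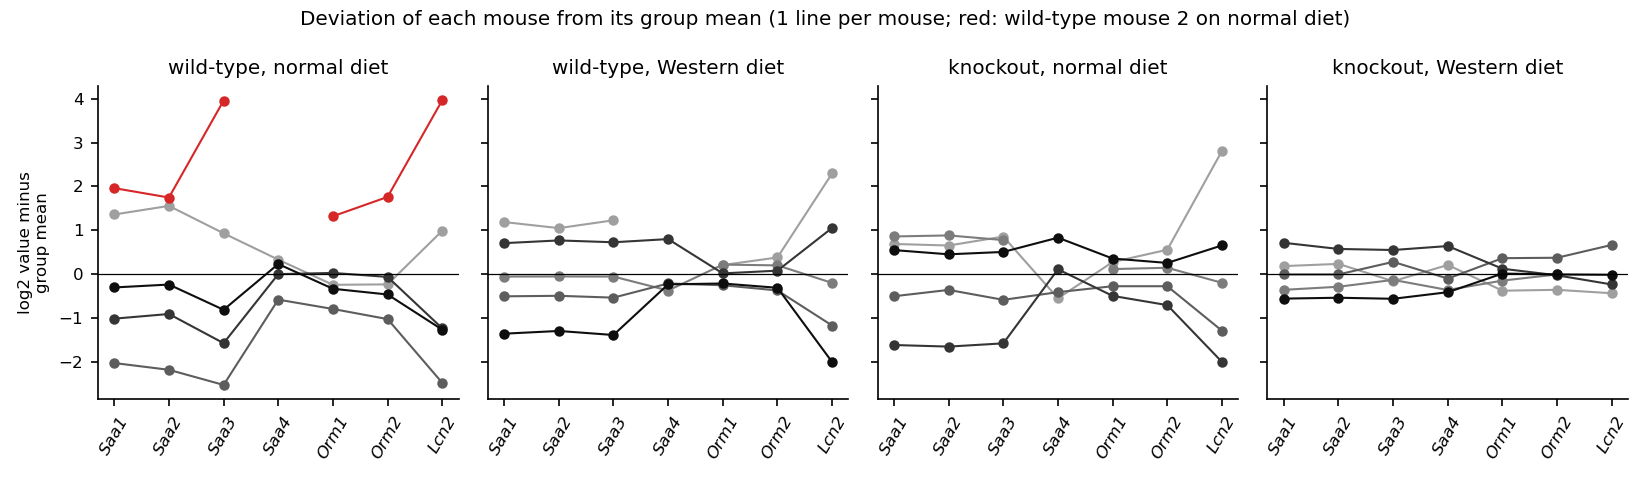
Log2 value of each mouse minus its group mean (vertical axis) for the 7 acute phase genes that were not saturated on most arrays (horizontal axis), in the 4 groups, with 1 line per mouse and wild-type mouse 2 on normal diet in red. That mouse lay highest for Saa1, Saa2, Saa3, Orm1, Orm2 and Lcn2, and lines of knockout mice on Western diet stayed close to 0, with SDs of at most 0.50.

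The 5 comparisons differed in how many of the 7 members passed a limma test at an adjusted p under 0.05, with Benjamini-Hochberg adjustment over all genes tested. Between genotypes on normal diet no member passed, whereas 11.4% of all 17547 genes tested were higher and 7.91% lower in the knockout, and 1 of the 7 (Orm1) had an unadjusted p under 0.05. Between genotypes on Western diet 1 member rose in the knockout (Lcn2) and 1 fell (Saa4), against 26.1% of all genes higher and 30.6% lower. Only these 2 had an unadjusted p under 0.05 there. For the diet in wild-type mice no member passed, against 3.16% of all genes higher and 2.75% lower. None had an unadjusted p under 0.05 either. The diet in knockout mice raised 2 members (Lcn2 and Orm2) and lowered 1 (Saa4), against 23.7% of all genes higher and 26.4% lower. An unadjusted p under 0.05 was seen for 4 of the 7 (Lcn2, Orm1, Orm2 and Saa4). The interaction, which is the diet difference in knockout mice minus that in wild-type mice, passed for Lcn2 upward and Saa4 downward, against 13.2% of all genes upward and 13.7% downward. Its unadjusted p was under 0.05 for the same 4 members. The medians over the 7 members were 0.97, 0.26, 0.18, -0.11 and -0.58 in this order of comparisons, beside -0.05, -0.12, -0.03, -0.09 and -0.05 over all genes. In each comparison the share of members that passed was below or close to that of all genes. The comparisons share groups and are not independent. Those of genotype on normal diet and of diet in wild-type mice share the chow-fed wild-type mice. Those of genotype on Western diet and of diet in knockout mice share the knockout mice on Western diet. Their Lcn2 and Saa4 calls therefore rest on the same knockout mice, which the interaction also uses.

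**Figure D3:**
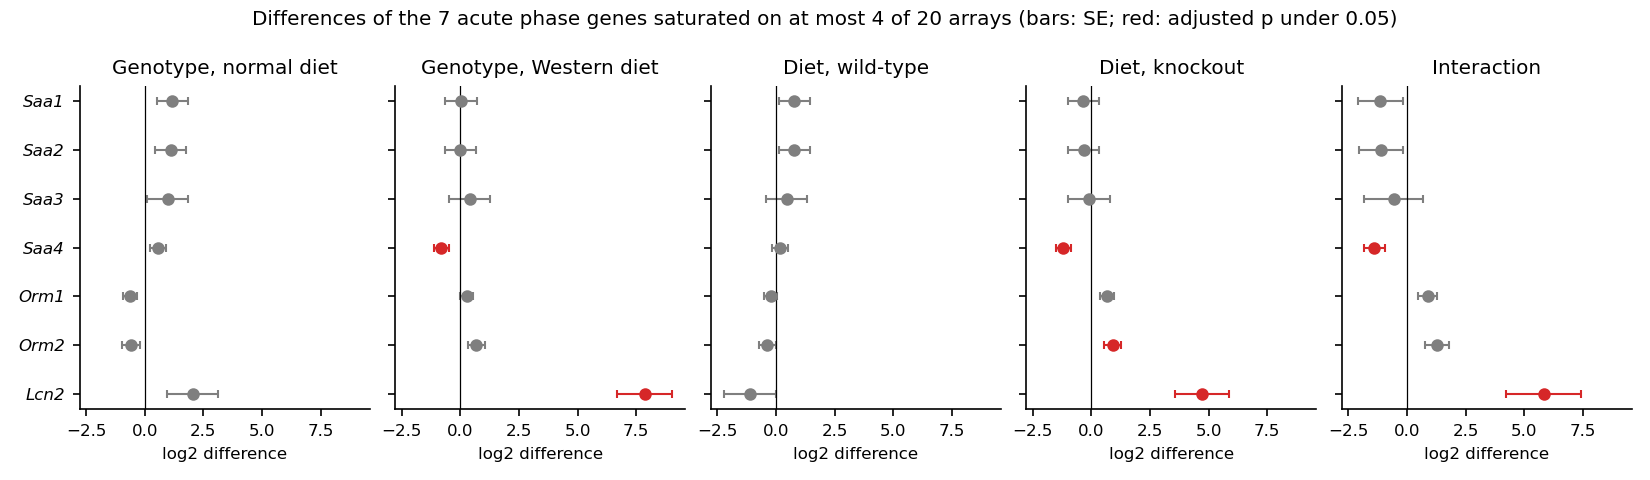
Log2 difference (horizontal axis) with its standard error for the 7 acute phase genes saturated on at most 4 arrays, in the 5 comparisons, with red points where the adjusted p was under 0.05. Only Lcn2 and Saa4 have red points in the comparison of genotypes on Western diet and in the interaction, and Lcn2 reaches 7.87.

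Lcn2 showed the widest range of the members. Its log2 values in chow-fed wild-type mice 1 to 5 were -0.23, 2.74, -3.69, -2.45 and -2.48. On Western diet wild-type mice 1 to 5 had -0.05, -2.54, -3.51, -1.29 and -4.34. Knockout mice 1 to 5 on normal diet had 3.62, 0.62, -0.47, -1.18 and 1.47. Knockout mice 1, 3, 4 and 5 on Western diet had 5.10, 6.20, 5.30 and 5.52, and the spot of mouse 2, left out because its signal was flagged as an outlier, would give 5.44. All knockout mice on Western diet lay above the highest mouse of the other 3 groups, knockout mouse 1 on normal diet, and the other 3 groups overlapped.

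Lcn2 was 234-fold higher in knockout than in wild-type mice on Western diet (log2 difference 7.87 ± 1.17, SE, adjusted p = 1.92e-05 with limma, n = 4 and 5). Signals of these wild-type mice were dim, at intensities of 13.8 to 244, so the size of the fold is imprecise. The 13 other settings gave log2 differences of 6.24 to 8.21. The Western diet raised Lcn2 26.3-fold in knockout mice (4.72 ± 1.17, adjusted p = 0.00277). In wild-type mice the diet difference was -1.12 ± 1.10 (adjusted p = 0.616; -0.13 without wild-type mouse 2 on normal diet), and the interaction of 5.84 ± 1.61 passed (adjusted p = 0.012). On normal diet the genotype difference of 2.04 ± 1.10 did not pass (adjusted p = 0.218). Without wild-type mouse 2, the highest of its group, it was 3.03 with an adjusted p of 0.0378. That was the only 1 of the 20 fits without 1 mouse that passed. Within the 4 slides with values of both groups, the genotype difference on Western diet was 5.15, 8.74, 8.80 and 6.81, and the diet difference in knockout mice was 1.48, 6.67, 6.48 and 4.05. In bulk liver RNA, more cells of a type and more RNA per cell cannot be told apart.

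Genes of cell types that also make lipocalin 2 moved in the same comparison. Of 10 measured neutrophil markers, 9 rose and none fell in knockout mice on Western diet compared with wild-type mice on that diet, with a median log2 difference of 2.64, against 26.1% of all genes higher (9 of 10 also passed upward with diet in knockout mice, with a median of 3.15 when Camp and Ngp, above background on no array of chow-fed knockout mice, are set at their bounds). Mmp8, a neutrophil collagenase, was higher by 4.91 ± 0.55 (adjusted p = 4.92e-07), although only 1 of 5 wild-type arrays on Western diet measured it above background. Retnlg, a granulocyte resistin-like gene, was higher by 4.21 ± 0.62 (adjusted p = 1.29e-05), with 1 of 5 wild-type arrays above background. The summed signal of the 10 neutrophil markers was 13.5 to 58.3 times the 75th percentile in knockout mice on Western diet, 1.95 to 11.6 in wild-type mice on Western diet, 1.09 to 5.93 in chow-fed wild-type mice and 2.02 to 4.79 in knockout mice on normal diet. Elane, another neutrophil gene, was above background on 1 array only, and no probe was named Ly6g. The part of these cells in the Lcn2 result was not tested.

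Saa3, the serum amyloid A gene that macrophages also make, varied more between mice of a group than between groups. Chow-fed wild-type mice 1 to 5 had log2 values of 4.85, 7.87, 1.40, 2.35 and 3.11, of which the 7.87 of mouse 2 was saturated, so that the lowest and the highest mouse differed at least 88.3-fold. Wild-type mice 1 to 5 on Western diet had 5.61, 4.33, 3.85, 5.11 and 3.0. Knockout mice 1 to 5 had 5.75, 5.67, 4.31, 3.32 and 5.40 when fed chow, and 4.62, 4.65, 5.06, 5.33 and 4.22 on Western diet. The 4 groups overlapped, and the means were 3.92, 4.38, 4.89 and 4.78 in this order. The genotype difference on normal diet was 0.97 ± 0.88 (adjusted p = 0.478). Without wild-type mouse 2, the highest of its group, it was 1.96 with an adjusted p of 0.044, the only 1 of the 20 fits without 1 mouse that passed. The other comparisons were 0.40 between genotypes on Western diet, 0.46 for diet in wild-type mice and -0.11 for diet in knockout mice, none of which passed. The diet difference in wild-type mice was 1.45 without mouse 2 (adjusted p = 0.236).

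Saa1 and Saa2, the hepatic genes for the serum amyloid A of plasma, behaved alike. Saa1 ranged from 3.88 to 7.86 in chow-fed wild-type mice, from 5.33 to 7.87 in wild-type mice on Western diet, from 5.45 to 7.92 in knockout mice on normal diet and from 6.16 to 7.43 in knockout mice on Western diet. The groups overlapped throughout. Saa1 differed by 1.16 ± 0.67 between genotypes on normal diet (adjusted p = 0.246), by 0.03 on Western diet, by 0.78 for diet in wild-type mice (1.27 without mouse 2 on normal diet) and by -0.35 for diet in knockout mice. The corresponding differences of Saa2 were 1.11 ± 0.66 (adjusted p = 0.264), -0.01, 0.79 (1.23 without that mouse) and -0.33. The second Saa1 probe, saturated on 1 array, differed by 1.16 ± 0.74 (adjusted p = 0.301) between genotypes on normal diet. Its signal between the lowest and highest wild-type mouse on normal diet differed 26.8-fold, a lower bound because the highest was saturated. The direction of the diet difference in knockout mice turned with quantile normalization for Saa1 (0.17), Saa2 (0.21) and Saa3 (0.21), and none passed. That of the genotype difference on Western diet turned with median scaling for Saa1 (-0.10) and with quantile normalization for Saa2 (0.41), again with no call.

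Saa4, the constitutively expressed serum amyloid A, was the member that fell. Knockout mice 1 to 5 on Western diet had log2 values of 4.74, 4.17, 4.43, 5.17 and 4.12. Knockout mice 1, 3, 4 and 5 on normal diet had 5.20, 5.34, 5.86 and 6.58, all above the 5 on Western diet. Wild-type mice 2, 3, 4 and 5 on Western diet had 4.98, 5.14, 6.15 and 5.12, and wild-type mice 1, 3, 4 and 5 on normal diet had 5.51, 4.60, 5.18 and 5.41. Outlier spots were left out for the 3 missing mice. Kept, they would give 6.26 for chow-fed wild-type mouse 2, 6.09 for wild-type mouse 1 on Western diet and 5.16 for chow-fed knockout mouse 2, the last just below the highest knockout mouse on Western diet. With the Western diet Saa4 fell by 1.22 ± 0.32 in log2 in knockout mice (2.32-fold, adjusted p = 0.00498 with limma). This call held in all 20 fits without 1 mouse and under 12 of 13 other settings. It was lost with normexp background correction (-0.82, adjusted p = 0.194). Within the 4 slides with values of both diet groups of the knockout, the difference was -0.45, -0.91, -0.69 and -2.46. The diet difference in wild-type mice was 0.18 ± 0.34 (adjusted p = 0.812), and the interaction of -1.39 ± 0.46 passed (adjusted p = 0.0368).

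Between genotypes on Western diet, Saa4 was lower in the knockout by 0.82 in log2 (-0.82 ± 0.32, adjusted p = 0.0388). This call did not hold under 6 of 13 other settings, with an adjusted p of 0.149 with slide as a block and of 0.455 with normexp background correction. It was also lost without knockout mice 2, 3 or 5 on Western diet (adjusted p = 0.0852, 0.0688 and 0.087) or wild-type mouse 4 on Western diet (0.148). Within slides it was -0.55, 0.03 and -2.03. The second Saa4 probe, measured on all 20 arrays, differed by -0.89 ± 0.32 (adjusted p = 0.0228) between genotypes on Western diet and by -0.93 ± 0.32 (adjusted p = 0.0219) for diet in knockout mice. Its interaction of -1.15 ± 0.45 did not pass (adjusted p = 0.0703), and that of the first probe was lost under 7 of 13 other settings and without any of 8 single mice (knockout mice 2, 3 and 5 on Western diet, knockout mice 4 and 5 on normal diet, wild-type mouse 4 on Western diet, and wild-type mice 3 and 4 on normal diet), where the adjusted p was 0.0536 to 0.0789. Of 9 measured hepatocyte markers, 7 fell in knockout mice with the Western diet (median -1.13, 26.4% of all genes lower) and 7 fell between genotypes on that diet (median -0.69, 30.6% of all genes lower). Their summed signal was 493 to 681 times the 75th percentile in knockout mice on Western diet and 717 to 1255 in the other 15. Their part in the Saa4 result was not tested.

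Orm1 and Orm2, which encode 2 forms of the orosomucoid that binds drugs and lipophilic ligands in plasma, were highest in wild-type mouse 2 on normal diet. Knockout mice on Western diet had the highest group mean of Orm2 (6.29). For Orm1 their mean of 5.54 was close to the 5.51 of chow-fed wild-type mice. Orm2 had log2 values of 5.94, 6.29, 6.67, 6.27 and 6.29 in knockout mice 1 to 5 on Western diet and of 5.94, 5.53, 5.11, 4.68 and 5.64 on normal diet. Wild-type mice 1 to 5 had 5.99, 5.81, 5.24, 5.69 and 5.30 on Western diet and 5.75, 7.74, 4.96, 5.92 and 5.52 when fed chow. The knockout diet groups met at 5.94 and otherwise did not overlap. The diet raised Orm2 1.88-fold in knockout mice (0.91 ± 0.37, adjusted p = 0.0487), a call close to the threshold that 16 of the 20 fits without 1 mouse did not make (adjusted p up to 0.127). Those 16 fits each left out 1 of knockout mice 2 to 5 of either diet, 1 of the 5 wild-type mice on Western diet, or wild-type mouse 1, 4 or 5 on normal diet. The call was also lost with median scaling, normexp background correction and no filter (adjusted p = 0.0813, 0.0923 and 0.0703). Within the 5 slides with both groups the difference was -0.00, 0.76, 1.55, 1.59 and 0.65. The genotype difference on Western diet was 0.68 ± 0.37 (adjusted p = 0.126). Without wild-type mouse 2 on normal diet, which adds to the shared spread, its adjusted p was 0.0193, the only 1 of the 20 fits without 1 mouse that passed. With all mice it passed under 3 of 13 other settings. These were quantile normalization (1.06, adjusted p = 0.0156), the authors' deposited matrix (1.05, 0.0137) and a fit of only the groups compared (0.68, 0.00943).

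Orm1 had a range of 5.17 to 5.91 in knockout mice on Western diet, 4.39 to 5.24 in knockout mice on normal diet, 5.03 to 5.50 in wild-type mice on Western diet and 4.72 to 6.83 in wild-type mice on normal diet. Between genotypes on Western diet it differed by 0.26 ± 0.29 (adjusted p = 0.449 with limma). The Orm1 diet difference in knockout mice was 0.66 ± 0.29 (adjusted p = 0.0626). It passed in 4 of the 20 fits without 1 mouse, among them that without wild-type mouse 2 on normal diet (adjusted p = 0.00775). It also passed with quantile normalization (1.05, adjusted p = 0.00335). Between genotypes on normal diet Orm1 was at -0.63 ± 0.29 (adjusted p = 0.137) and Orm2 at -0.60 ± 0.37 (0.288). Without wild-type mouse 2 these were -0.30 (adjusted p = 0.342) and -0.16 (0.709). Within slides the Orm1 difference was -2.22 on the slide of that mouse and -0.26, -0.34 and -0.30 on the other 3. The diet differences in wild-type mice were -0.23 for Orm1 and -0.37 for Orm2, and 0.10 and 0.07 without it. The interaction was 0.89 ± 0.41 for Orm1 and 1.28 ± 0.52 for Orm2, and neither passed (adjusted p = 0.114 and 0.0804 with limma). It passed under 2 of 13 other settings for Orm1 and 3 of 13 for Orm2. For each gene, 1 of the 20 fits without 1 mouse also passed. The paralog Orm3, whose promoter window shares 85.9% of aligned bases with that of Orm2, was higher by 2.12 ± 0.59 in knockout than in wild-type mice on Western diet (adjusted p = 0.00521). The 3 genes lie side by side, and shared signal between their probes was not tested.

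Several members differed from mouse to mouse together. After each group's mean was removed, 15 of the 28 pairs of 8 members (Hpx included) had a Pearson correlation with an adjusted p under 0.05, by a two-sided permutation test of 100000 resamples within groups and with adjustment over the 28 pairs. The share of such pairs over all genes was not measured, so this count is not read as particular to the members. The count was also 15 over the 21 pairs without Hpx, which was saturated on 18 arrays, and without wild-type mouse 2. It was 12 without the 2 mice farthest from the median of the first gene of each pair, where Saa1 with Orm1, Saa2 with Orm1 and Saa2 with Orm2 no longer passed (permutation test, adjusted p = 0.098, 0.141 and 0.06). Saa3 and Lcn2 had r = 0.92 and rho = 0.92 over 19 mice (permutation p = 1e-05 and 7e-05, adjusted p = 5.6e-05 and 0.000327), and 1e-05 is the smallest p these resamples can give. Without the 2 mice farthest from the median of Saa3 this r was 0.86, without wild-type mouse 2 on normal diet 0.87, and with slide effects removed 0.93. Orm1 and Orm2 had r = 0.98 and rho = 0.94, and Saa1 and Saa2 had r = 0.99 and rho = 1.00, each over 20 mice (permutation p = 1e-05, adjusted p = 5.6e-05 and 7e-05). Orm2 and Lcn2 had r = 0.89 and rho = 0.87 (permutation p = 2e-05 and 3e-05, adjusted p = 9.33e-05 and 0.000168), and r was 0.82 without the 2 mice farthest from the median of Orm2. All 15 pairs came from the 6 members Saa1, Saa2, Saa3, Orm1, Orm2 and Lcn2. Saa4 reached r = 0.53 with Saa1 (rho = 0.55, permutation p = 0.0468 and 0.0477, adjusted p = 0.0819 and 0.0835, 17 mice) and less with the others, but with slide effects removed this r was 0.70 (rho = 0.70, permutation p = 0.00697 and 0.00588, adjusted p = 0.0115 and 0.00993). The mice left out for Saa4 were chow-fed wild-type mouse 2, wild-type mouse 1 on Western diet and chow-fed knockout mouse 2. Each was the highest of its group for Saa1 (7.86, 7.87 and 7.92), which limits these Saa4 values. The second Saa4 probe, measured in all 20 mice, was not correlated with the other members.

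**Figure D4:**
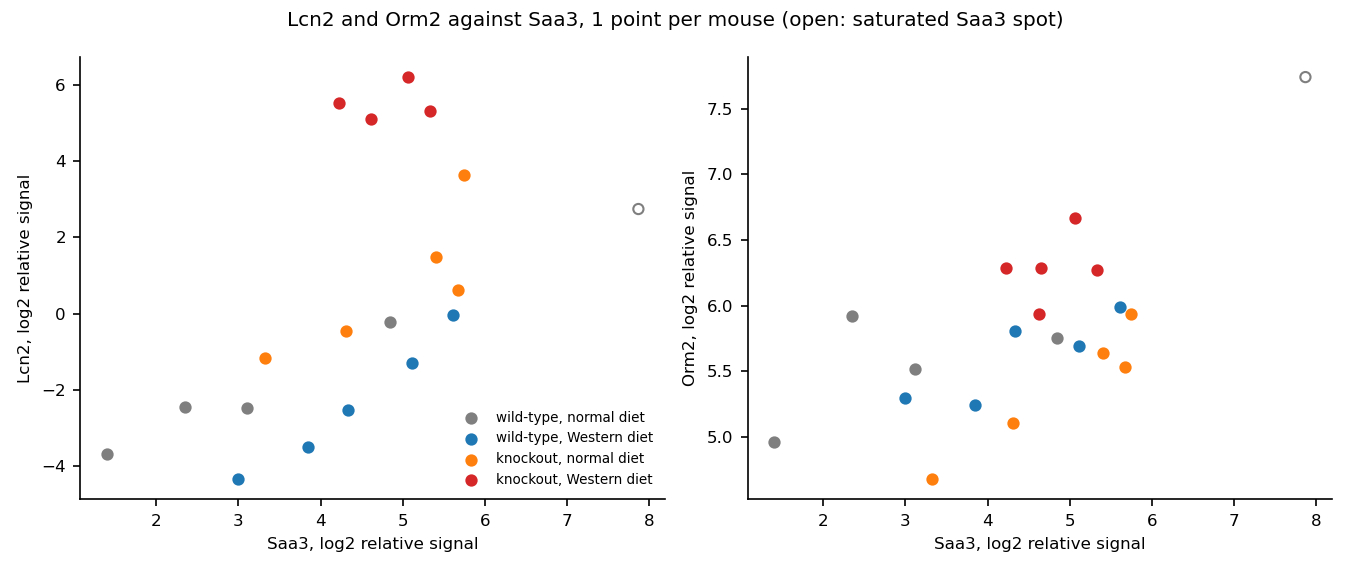
Log2 values of Lcn2 (left, vertical axis) and Orm2 (right, vertical axis) against Saa3 (horizontal axes), with 1 point per mouse coloured by group and an open point for the saturated Saa3 spot. Within each of the other groups Lcn2 rises with Saa3, while the 4 knockout mice on Western diet sit between 5.10 and 6.20 for Lcn2 at Saa3 values of 4.22 to 5.33.

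The spread between mice was set side by side for the 4 groups, with no test of the difference. The median SD over the 7 members was 0.43 in knockout mice on Western diet, 0.95 in wild-type mice on Western diet, 1.03 in chow-fed knockout mice and 1.65 in chow-fed wild-type mice (1.42 without mouse 2). Of the 7 members, 5 had their smallest SD in knockout mice on Western diet, while Orm1 had it in wild-type mice on Western diet (0.22 against 0.28) and Saa4 in chow-fed wild-type mice (0.40 against 0.44). The highest SDs in these groups were 0.50 for Saa1, 1.71 for Lcn2, 1.87 for Lcn2 and 2.55 for Saa3, and without mouse 2 the highest of the last group was 1.55 for Saa2. Among 13260 genes above background on all arrays, those whose deviations were most like the mean of the 4 members never saturated were Orm3 (r = 0.90 over 20 mice, 0.77 without wild-type mouse 2 on normal diet), Aig1 (0.87 and 0.68), Cyb561 (0.87 and 0.66), the metallothionein Mt2 (0.85 and 0.63) and Bckdhb (0.84 and 0.66). These correlations are a description, since the genes were searched for them.

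Other positive acute phase genes split in direction. Of 21 that were saturated on fewer than 18 arrays (3 of them, Serpina3m, Itih3 and Cfb, on over 10), 8 rose and 7 fell in knockout compared with wild-type mice on Western diet (median 0.31), where 26.1% of all genes rose and 30.6% fell. The metallothioneins, which bind zinc and copper, and the interleukin 1 receptor antagonist led the rise: Mt2 was higher by 6.83 ± 0.97 (adjusted p = 8.84e-06), Mt1 by 5.19 ± 0.83 (3.19e-05) and Il1rn by 5.07 ± 0.73 (1.11e-05). Apcs, the gene of serum amyloid P, was higher by 2.25 ± 0.38 on Western diet (adjusted p = 5.94e-05) and by 1.80 ± 0.38 on normal diet (0.0024). Serpina3m, saturated on all 5 wild-type arrays on Western diet, was among the 7 that fell, so the size of its fall is a lower bound. Cfb was also among the 7, with all 5 knockout and 4 of 5 wild-type spots saturated on that diet, so its direction is not read. On normal diet 1 rose (Apcs) and 2 fell, against 11.4% and 7.91% of all genes. With the Western diet 4 rose and 8 fell in knockout mice, against 23.7% and 26.4% of all genes, among them Il1rn (3.46 ± 0.73, adjusted p = 0.000681) and, lower, the iron hormone gene Hamp (-2.06 ± 0.55, adjusted p = 0.00491). In wild-type mice the diet raised none and lowered 1 of the 21 (3.16% and 2.75% of all genes), and the interaction was positive for 6 and negative for 4 (13.2% and 13.7%). Mt2 was among the genes in which wild-type mouse 2 on normal diet stood apart, 5.30 above the median of the other 4.

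Of 7 genes known to fall in the acute phase and saturated on fewer than 18 arrays, 5 fell and 1 rose between genotypes on Western diet (median -0.70), beside 30.6% and 26.1% of all genes. With the diet in knockout mice 5 fell and none rose (median -0.60), beside 26.4% and 23.7% of all genes. Paraoxonase 1 (Pon1), a high density lipoprotein esterase, was lower by 3.34 in log2 between genotypes on Western diet (-3.34 ± 0.31, adjusted p = 4.96e-08). Transthyretin (Ttr), the thyroid hormone and retinol carrier, was at -1.99 ± 0.17 (adjusted p = 2.41e-08) and corticosteroid-binding globulin (Serpina6) at -1.46 ± 0.39 (0.00382). On normal diet 1 rose, Serpina6 (1.14 ± 0.39, adjusted p = 0.0477), and none fell (11.4% and 7.91% of all genes). In wild-type mice 2 of the 7 fell with diet and none rose (2.75% and 3.16% of all genes), and the interaction was positive for 1 and negative for 3 (13.2% and 13.7%). Apoa1, the main protein of high density lipoprotein, was 1 of the 2 (-0.48, adjusted p = 0.0426), but its spots were saturated on 4 of 5 arrays of chow-fed wild-type mice and 2 of 5 of chow-fed knockout mice, so its falls with diet are lower bounds. The hepatocyte markers fell in the same comparisons, and their part was not tested.

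Of 20 genes of the cytokine pathways that drive the acute phase, 14 rose and 2 fell in knockout compared with wild-type mice on Western diet (median 0.66), beside 26.1% and 30.6% of all genes. Osmr, the oncostatin M receptor, was higher by 3.36 ± 0.25 (adjusted p = 4.14e-09) and Tnf by 3.86 ± 0.44 (6.16e-07), with Tnf above background on 2 of 5 wild-type arrays. Lifr, a receptor of the same cytokine family, was at -2.56 ± 0.24 (adjusted p = 1.88e-07) and Il1rap, the interleukin 1 co-receptor, at -2.32 ± 0.21 (4.28e-08). On normal diet 5 rose and 1 fell (11.4% and 7.91% of all genes), with Tnf at 2.56 ± 0.44 (adjusted p = 0.000417) and Il1b at 1.74 ± 0.51 (0.0214). With the diet 11 rose and 3 fell in knockout mice (23.7% and 26.4% of all genes), and 1 rose (Il1r1) and 1 fell (Lifr) in wild-type mice (3.16% and 2.75%). The interaction was positive for 5 and negative for 2 (13.2% and 13.7% of all genes), with Osmr at 3.30 ± 0.35 (adjusted p = 3.85e-06).

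Among 9 receptors and handling genes of acute phase proteins, 5 rose and 3 fell between genotypes on Western diet, beside 26.1% and 30.6% of all genes. On normal diet 2 rose and 2 fell, beside 11.4% and 7.91% of all genes. Cd163, the macrophage receptor for haptoglobin and haemoglobin, was lower on both diets (-5.28 ± 0.51 with adjusted p = 1.26e-06 for chow, -4.61 ± 0.51 with adjusted p = 5.07e-07 for Western diet). Only 2 of 5 arrays of chow-fed knockout mice and 3 of 5 of those on Western diet measured it above background. Lrp2, the megalin gene, was at -3.52 ± 0.39 (adjusted p = 5.95e-06) on normal diet and at -4.95 ± 0.39 (9.01e-09) on the Western diet, above background there on 1 of 5 knockout arrays. Fpr2, a formyl peptide receptor that binds serum amyloid A, was higher by 4.25 ± 0.47 on normal diet (adjusted p = 5.29e-06), with 3 of 5 wild-type arrays above background. Its interaction of -3.06 ± 0.66 passed (adjusted p = 0.00218). Tlr4 was higher by 1.41 ± 0.28 in chow-fed mice and by 2.96 ± 0.28 with Western diet (adjusted p = 0.00152 and 7.33e-08). With the diet 3 of the 9 rose and 2 fell in knockout mice (23.7% and 26.4% of all genes), and no receptor passed in wild-type mice. There Fpr2 had the largest difference (1.53 ± 0.47, adjusted p = 0.0623).

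Macrophage and bile duct genes also differed between genotypes on Western diet. In chow-fed and Western-diet wild-type mice the median sums were 41.5 and 103 for macrophage markers. They were 16.2 and 41.2 for cholangiocyte markers and 1.61 and 4.03 for neutrophil markers. The mean log2 values of Lcn2 in these groups were -1.22 and -2.34, a difference that did not pass (adjusted p = 0.616 with limma). Of 13 macrophage markers, 7 rose and 4 fell between genotypes on Western diet (median 1.79), beside 26.1% and 30.6% of all genes, and their summed signal was 273 to 293 times the 75th percentile in knockout mice on Western diet against 16.3 to 155 in the other 15, with Lyz2 saturated on all 5 arrays of the former. All 7 cholangiocyte markers rose in that comparison (median 2.75 with Cftr at its bound), with sums of 159 to 229 in knockout mice on Western diet and 13.3 to 156 in the others. Spp1 was saturated on all 5 arrays of that knockout group, and Cftr, the chloride channel gene of bile ducts, was above background only there, at least 6.75-fold higher than in wild-type mice on Western diet. A bound of this kind sets the mean of the bright group against the higher of the dim probe's own signal and the lowest signal well above background on each array. Of 5 adipocyte markers only Cfd was tested, and it passed only for diet in knockout mice, where it was at least 7.78-fold lower on Western diet. Their part in the member results was not tested.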

How the data were processed

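Liver RNA of 20 mice was labelled with Cy3 and hybridised to 20 Agilent arrays. The deposited scanner files hold background-subtracted intensity values, made with Feature Extraction 9.5.3.1 per the file headers, with other values that flag spots as well above background, saturated or outlying. The submitters' processing notes name Agilent Feature Extraction 9.5 and limma. The authors' deposited matrix of log2 values (24493 probes, column medians 7.73 to 7.78, correlation across probes with the log2 scanner signals 0.974 to 0.982) served as an alternative, and its exact centring and choice of probes are not given in the sources used here.

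The log2 signal minus each array's 75th percentile was used. Outlier spots were left out, 1 probe per gene was kept (highest mean), and a gene was tested if some group had it well above background in 4 or more of its 5 mice (17552 genes). A fit of the 4 groups with limma 3.58.1 gave 5 two-sided comparisons, with Benjamini-Hochberg adjustment within each and a threshold of 0.05. Scripts were tested on simulated data. The 3 members saturated on 18 or more arrays were set aside after the values were seen. The members and lists were chosen with earlier results of these data known. From each other list, the up to 4 genes with the largest differences per comparison were named, and other names mark saturated or unmeasured genes. Promoters came from RefSeq (GRCm38.p6). Alternatives covered scaling, background correction, filters, probes, blocks, leaving out mice and the deposited matrix. The pairs without Hpx and without wild-type mouse 2 were chosen after seeing the data.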

Additional observations from a re-analysis of the deposited data

Results flagged for a closer look

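Lcn2 and Saa4 responded to the diet differently in the 2 genotypes, by a test of the interaction in limma. The diet difference in knockout mice minus that in wild-type mice was 5.84 for Lcn2 (adjusted p = 0.012) and -1.39 for Saa4 (adjusted p = 0.0368). The Saa4 value did not pass under 7 of 13 other settings or without any of 8 single mice, and the second Saa4 probe did not pass (-1.15, adjusted p = 0.0703).

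At each Saa4 probe, 1 value was past the 95% critical value of Dixon's ratio, the gap to the nearest value divided by the group's range. Wild-type mouse 4 on Western diet, at 6.15, was the highest of 4 for the first probe (0.863). This rests on the outlier spot left out for mouse 1: with that spot kept, at 6.09, the ratio was 0.051. Knockout mouse 5 on normal diet, at 6.24, was the highest of 5 for the second probe (0.779). These were 2 of 36 groups of member values tested, and chance flags about 1 in 20.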

How the results depend on the processing

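Of 170 alternative counts of members called or of correlated pairs, 147 stayed within 1.5 times the count given, and of 1475 alternative values of single genes, 1368 kept their direction and their side of the threshold. Between genotypes on Western diet, 1 member passed in place of 2 under normexp background correction, no filter, slide block and replicate block, and for diet in knockout mice 1 in place of 3 under normexp. For the interaction, 1 passed in place of 2 under median scaling, normexp, no filter, the mean over all probes and outlier spots kept, and 4 under quantile normalization. Leaving out 1 mouse gave 0 to 2 members between genotypes on normal diet (2 without wild-type mouse 2), 1 to 3 between genotypes on Western diet (1 without knockout mouse 2, 3 or 5 or wild-type mouse 4 on that diet), 0 for diet in wild-type mice, 2 to 4 for diet in knockout mice, and 1 to 3 for the interaction (1 without knockout mouse 2, 3 or 5 or wild-type mouse 4 on Western diet, or knockout mouse 4 or 5 or wild-type mouse 4 on normal diet). The cause was not tested. The Lcn2 calls on Western diet, for diet in knockout mice and for the interaction held under all 33 alternatives, with differences of 6.24 to 8.45, 4.22 to 5.42 and 4.85 to 6.54.

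Of all genes, 19.3% passed between genotypes on normal diet against 2.83% under normexp, 10.4% with no filter and 12.8% under median scaling, and 56.7% passed between genotypes on Western diet against 23.4% under normexp and 36.2% with no filter. For diet in knockout mice 23.7% rose and 26.4% fell, and 19.9% passed in either direction under normexp. For the interaction 27% passed against 5.62% under normexp, 14.9% with no filter and 17.5% under median scaling. For diet in wild-type mice the share was 5.91% against 0.815% under normexp, 2.99% under median scaling and 2.8% with no filter.

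Signs turned only for values that no fit called. Between genotypes on Western diet, Saa1 was -0.10 under median scaling, -0.01 as the mean over all probes and -0.30 with the slide block, and Saa2 was 0.41 under quantile normalization, 0.22 under normexp and 0.37 in the deposited matrix. For diet in knockout mice, quantile normalization gave 0.17 for Saa1, 0.21 for Saa2 and 0.21 for Saa3, the matrix gave 0.10, 0.11 and 0.20 for them and 0.01 for Nr1h3, and normexp gave 0.12 for Saa3. The Nr1h3 interaction was -0.16 under normexp. Leaving out 1 mouse gave -0.31 to 0.33 for Saa1 and -0.33 to 0.25 for Saa2 between genotypes on Western diet. For diet in wild-type mice it gave -0.16 to 1.45 for Saa3, -0.09 to 0.30 for Saa4, -0.43 to 0.10 for Orm1 and -0.62 to 0.07 for Orm2. For diet in knockout mice it gave -0.50 to 0.10 for Saa3, -0.40 to 0.02 for Nr1h3 and -0.46 to 0.01 for Nr1h2, and for the interaction -1.57 to 0.05 for Saa3 and -0.16 to 0.26 for Nr1h3.

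Mice of different groups with the same number had deviations that correlated between -0.40 and 0.49. Same-numbered knockout mice of the 2 diets lay on the same slide, as did wild-type mice 2 to 5 but not wild-type mouse 1. The main fit did not use this match. With slide as a block the counts of members were 0, 1, 0, 4 and 2 in the order of the report. With the replicate number as a block they were 0, 1, 0, 3 and 2. Saturation limits Hp, Hpx and Fgb on nearly all arrays and the highest Saa1, Saa2 and Saa3 values.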
